A study of Mus musculus with 12 samples.

Results

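Dentate gyrus libraries from mice with follistatin were compared with libraries from mice without it over both deposited count tables. All 12 libraries of the study entered, 6 with the follistatin gene Fst present and 6 with it absent. Libraries were assigned by their labels alone. In the first table, present means wild type (WT) and absent means knockout of Fst (KO). In the second, present means the group given an AAV9 vector for Fst, and absent means KO mice given an AAV9 vector for green fluorescent protein (GFP), so both absent groups carry the knockout. The labels write the vectors as AAV9-CB::Fst and AAV9-CB::GFP. They call the Fst vector group OE without naming its genotype, and give no age and no day of vector delivery. Mice were C57BL/6, total RNA was sequenced, and each group had 3 libraries. Whether a library holds RNA of 1 mouse or of several cannot be told from the labels, so p-values measure the spread between libraries.

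Follistatin is a secreted glycoprotein that binds activins tightly, also binds some related ligands such as GDF11 and BMPs, and keeps them from their receptors. Activins bind type II receptors, which recruit and activate type I receptors such as those encoded by Acvr1b and Acvr1c, and these phosphorylate SMAD2 and SMAD3. SMAD complexes then act on target genes, among them feedback inhibitors of the same pathway. In the hippocampus, the activin subunit gene Inhba is induced by neuronal activity.

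Libraries held 8081824 to 11331337 counts over 20915 to 22235 detected genes. Levels below are CPM (counts scaled to library size) after TMM scaling, and changes are log2 differences, present minus absent. Ribosomal RNA genes took 0.575 to 0.679% of counts in KO M2, WT F1, GFP vector M2, Fst vector M2 and Fst vector F. The 7 others held 0.00919 to 0.0211%. The library GFP vector F stood apart from the rest of its group: Gfap, an intermediate filament gene of astrocytes, was at 4902 CPM there, at 574 and 1549 CPM in GFP vector M1 and M2, and at 376 to 1004 CPM in the other 9. Titles and descriptions give different sexes for 4 libraries of the WT and KO table, and Xist and Ddx3y followed the titles. In bulk tissue, fewer cells of a type and less RNA per cell cannot be told apart.

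Fst was the only gene that passed the pooled test. Its counts were 2, 4 and 2 in KO M1, F1 and M2, and 34, 33 and 51 in WT M1, F1 and M2. The GFP vector libraries M1, M2 and F held 0, 1 and 0, and the Fst vector libraries held 2078, 1870 and 1497. Every library with follistatin present was thus above every library without it. The pooled log2 change was 8.95 ± 0.69 (SE, edgeR quasi-likelihood, adjusted p = 0.00159), but the change was not alike in the tables: 3.72 ± 0.31 from KO to WT and 11.90 ± 0.28 from GFP to Fst vector. The difference of these changes was 8.18 ± 0.84 (SE, adjusted p = 4.45e-04). A fold against the GFP vector group, at or under 1 count per library, depends on the fit's prior count. Fst is annotated on chromosome 13, 114452290 to 114458951, minus strand (GRCm38), and no source here says if reads of the vector's copy were assigned to it. Over the alternative settings its pooled adjusted p ran from 1.48e-11 to 0.821, and it was not called with voom, with the replicate block or without the 5 libraries of higher ribosomal RNA share.

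Of 15632 genes tested, this 1 was called in the pooled fit, 0.0064%, and none was called lower. The next smallest adjusted p was 0.205, so every gene described from here on did not pass the pooled edgeR test and is given by its values. Some passed in 1 table or under another setting, as said beside them or in the closing sections. An unadjusted p under 0.05 was reached by 1321 genes (8.45%), with 782 to be had by chance. They split into 592 higher (3.79%) and 729 lower (4.66%). Among these, 1231 (93.2%) had the same sign in both tables, against 52.5% of all genes tested. The pooled fit itself favours genes of like sign, so the first share is no separate evidence. With library totals in place of TMM scaling the higher share of the 1321 became 64.7% of 1440, in place of 44.8%, and the median over all genes moved from -0.0011 to 0.0295. A test that required both tables at once, using the larger p of 2 separate fits, called 1 of 14576 genes (0.00686%), again Fst.

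Changes in the 2 tables had little in common across genes. The log2 changes of the tables correlated across genes at Pearson r = 0.0656 without Fst and at Spearman rho = 0.0733 with Fst included. These values describe genes, which are not independent. The median size of a change was 0.0854 from KO to WT and 0.178 from GFP to Fst vector. Tested separately, 889 genes of the WT and KO table and 1427 of the vector table had an unadjusted p under 0.05. In both, 79 genes did so with the same direction (0.542% of genes tested), 29 higher and 50 lower, and 31 with opposite directions. The 79 became 120 without GFP vector M1, 155 with a term for sex, 142 with the replicate block, 46 without the 5 libraries of higher ribosomal RNA share and 16 at a tested minimum change of 1.2 fold. They are 8.89% of the 889 and 5.54% of the 1427. Leaving out Fst, 78 remained, and the change was larger in the vector table for 77 of them, the exception being Sorbs3 (0.45 from KO to WT, 0.43 in the vector table). Their median size was 0.264 in the WT and KO table and 0.797 in the vector table. A gene with a wider spread in 1 table needs a larger change there to pass. The 77 and these medians are thus partly set by the threshold that chose the genes. For 42 of the 78, 19 higher and 23 lower, the groups did not overlap in either table. The threshold picks genes whose groups lie apart in these same values, so this share is no separate evidence. The same holds for lack of overlap in genes named below for their small p. Over all genes tested, 175 (1.12%) had no overlap in both tables in the same direction, 86 higher (0.55%) and 89 lower (0.569%), and 99 in opposite directions. With library totals the split of such genes became 147 higher and 47 lower.

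**Figure D1:**
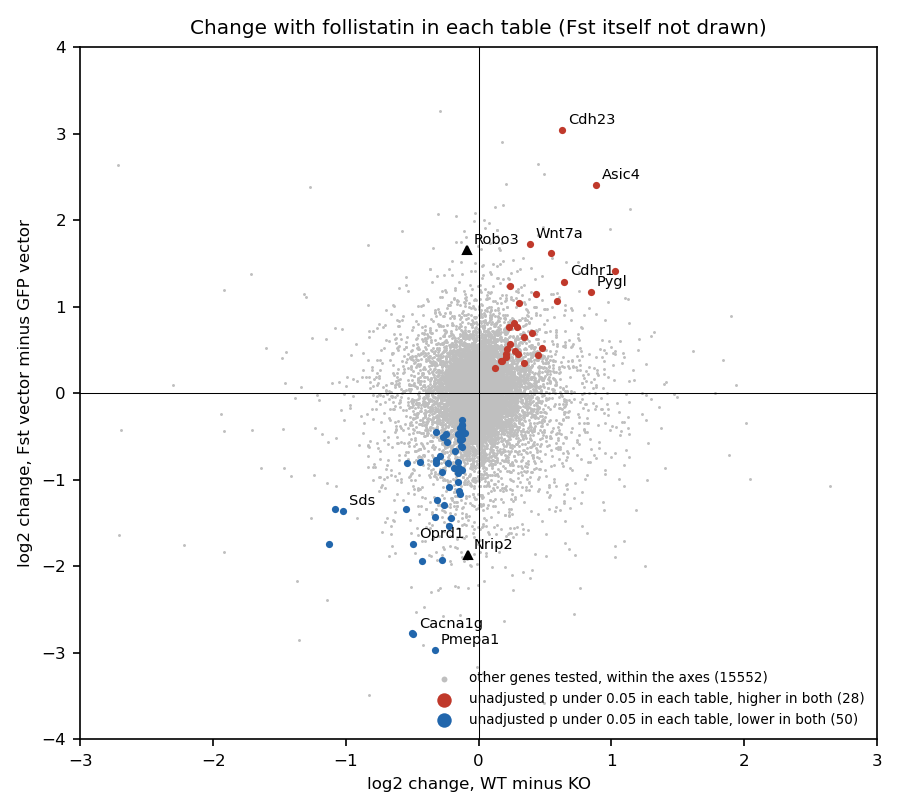
Log2 change from KO to WT (horizontal) against log2 change from GFP vector to Fst vector (vertical), 1 point per gene tested, Fst not drawn and 1 gene outside the axes. Red and blue points are the 28 genes higher and the 50 genes lower with follistatin at unadjusted p under 0.05 in each table, and black triangles are Robo3 and Nrip2, whose changes differed between the tables. The grey cloud of 15552 genes has hardly any slant (Pearson r = 0.0656).

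Promoter sequences of genes with a like change in both tables are shown because activin signals reach DNA through SMAD proteins, whose known motifs are the palindrome GTCTAGAC and the shorter CAGACA. RefSeq sequence (GRCm38.p6) of the 250 bases before the annotated start was searched on both strands. These genes were chosen after their values were seen. Cdhr1 and Id4, both higher with follistatin, held no match in this window, and Wnt7a (higher) and Rimbp2 (lower) held 1 match each to CAGACA or its reverse complement, in capitals.
Cdhr1 (chr14:37098348-37098597, minus strand): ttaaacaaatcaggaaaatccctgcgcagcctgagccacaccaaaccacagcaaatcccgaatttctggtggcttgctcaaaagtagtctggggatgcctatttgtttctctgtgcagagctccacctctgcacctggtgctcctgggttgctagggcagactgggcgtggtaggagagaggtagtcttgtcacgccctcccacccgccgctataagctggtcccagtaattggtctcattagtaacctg
Id4 (chr13:48260866-48261115, plus strand): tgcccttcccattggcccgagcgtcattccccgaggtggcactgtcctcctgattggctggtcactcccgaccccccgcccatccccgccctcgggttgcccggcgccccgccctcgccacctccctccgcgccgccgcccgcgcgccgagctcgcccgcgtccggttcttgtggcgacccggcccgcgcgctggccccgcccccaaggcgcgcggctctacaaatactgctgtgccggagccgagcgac
Wnt7a (chr6:91411354-91411603, minus strand): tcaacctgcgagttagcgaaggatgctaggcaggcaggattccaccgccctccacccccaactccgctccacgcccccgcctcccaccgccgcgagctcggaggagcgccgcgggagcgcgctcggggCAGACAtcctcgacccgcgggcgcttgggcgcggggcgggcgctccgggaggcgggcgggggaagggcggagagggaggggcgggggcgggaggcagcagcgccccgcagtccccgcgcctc
Rimbp2 (chr5:128953487-128953736, minus strand): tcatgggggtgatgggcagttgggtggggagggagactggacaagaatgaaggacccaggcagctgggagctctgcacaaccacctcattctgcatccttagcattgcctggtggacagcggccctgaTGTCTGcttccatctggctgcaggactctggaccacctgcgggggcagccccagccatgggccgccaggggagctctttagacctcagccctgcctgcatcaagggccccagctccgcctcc
Of the 29 genes higher in both tables, 23 matched a promoter in the table, and 5 of their 27 windows (18.5%) held CAGACA. Of the 50 lower, 36 matched, and 10 of 59 windows (16.9%) held it. The share was 13.8% of the 14621 windows of genes tested and 17.1% of all 32851 windows. GTCTAGAC was in 0 windows of both sets and in 27 of the 14621. A match describes letters in a window and is not a site.

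Higher levels with follistatin in both tables were led by Cdhr1, Pygl and Slc8a3. Cdhr1 (chromosome 14, 37077857 to 37098347), a cadherin-related gene known from photoreceptors and olfactory bulb neurons, had 9.94 to 10.9 CPM in its KO libraries and 16.1, 18.8 and 13.4 CPM in WT. It had 10.2, 6.02 and 6.15 CPM in the GFP vector group and 17.9, 20.8 and 15.3 CPM in the Fst vector group. All 6 libraries with follistatin were above all 6 without, across tables as well as within them. The pooled change was 0.96 ± 0.16 (SE, edgeR quasi-likelihood, adjusted p = 0.205), with 0.64 in the WT and KO table and 1.29 in the vector table. DESeq2, an unfiltered edgeR fit and the mean of both tables' changes each called Cdhr1.

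Pygl (chromosome 12, 70190811 to 70231488), the liver form of glycogen phosphorylase, stood at 1.42, 1.76 and 1.96 CPM in KO and 3.90, 2.94 and 2.47 CPM in WT. In the vector table it stood at 1.63, 2.04 and 1.15 CPM with GFP and 3.59, 4.02 and 3.23 CPM with Fst. The libraries with follistatin again did not overlap those without, and the pooled change was 1.01 ± 0.21 (SE, edgeR quasi-likelihood, adjusted p = 0.510). Slc8a3 (chromosome 12, 81197915 to 81333180), a sodium-calcium exchanger, had 16.9, 18.4 and 20.2 CPM in KO against 25.2, 20.6 and 21.2 CPM in WT. Its levels were 22.5, 17.5 and 16.6 CPM with the GFP vector and 31.8, 33.9 and 32.8 CPM with the Fst vector, a pooled change of 0.54 ± 0.12. The gap between groups was narrow in the WT and KO table, from 20.2 to 20.6 CPM, and wide in the vector table. Mcee, an enzyme of methylmalonyl-CoA metabolism, and Samd14 did not overlap within either table, with pooled changes of 0.53 ± 0.12 and 0.41 ± 0.10.

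Asic4 and Wnt7a, from the gene lists, were also in the higher set. Asic4 (chromosome 1, 75450436 to 75474343), a relative of the acid-sensing ion channels, had 17.4, 13.4 and 18.6 CPM in KO and 33.2, 24.8 and 33.1 CPM in WT. With the GFP vector it had 20.9, 8.05 and 4.33 CPM, and with the Fst vector 57.9, 46.8 and 68.1 CPM. Libraries with and without follistatin did not overlap, and the pooled change was 1.63 ± 0.39 (SE, edgeR quasi-likelihood, adjusted p = 0.510), or 1.37 ± 0.30 without GFP vector F. In the WT and KO table alone Asic4 did pass (adjusted p = 0.00236), and in the vector table alone it did not (adjusted p = 0.267). Wnt7a (chromosome 6, 91363981 to 91411363), a secreted Wnt ligand, had 9.07 to 11.2 CPM in KO and 10.4 to 15.9 CPM in WT, which overlap. In the vector table it had 10.4, 8.83 and 5.10 CPM with GFP and 30.7, 29.3 and 19.5 CPM with Fst, with no overlap, and the pooled change was 1.06 ± 0.26. Apart from Fst, the gene of largest pooled change in the higher set was Cdh23, a cadherin of hair cell tip links, at 1.54 to 2.95 CPM in KO, 3.37 to 4.23 CPM in WT, 1.76 to 3.17 CPM with the GFP vector and 9.61 to 30.4 CPM with the Fst vector.

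Lower levels with follistatin in both tables were led, by pooled p, by Sds, 5830408C22Rik, Emid1, Kcns2 and Homer3. Kcns2, a modifier subunit of Kv2 potassium channels, had 55.6, 51.0 and 50.7 CPM in KO and 48.9, 44.2 and 46.3 CPM in WT. It had 44.4, 58.0 and 60.6 CPM with the GFP vector and 34.5, 34.5 and 33.1 CPM with the Fst vector. The groups did not overlap in either table, and the pooled change was -0.42 ± 0.10 (SE, edgeR quasi-likelihood, adjusted p = 0.510). Homer3, a postsynaptic scaffold gene, had a pooled change of -0.51 ± 0.12, and Emid1, an extracellular matrix gene, one of -0.69 ± 0.16, both without overlap in either table. Sds, an enzyme of serine breakdown, was at 1.65 to 3.17 CPM in KO, 0.654 to 1.58 CPM in WT, 2.26 to 2.88 CPM with GFP and 0.776 to 1.29 CPM with Fst. Sds overlaps Plbd2, 5830408C22Rik overlaps Plekha2 and Homer3 overlaps Ddx49, each on the other strand and with abundant reads, and the handling of strand is not given, so their reads cannot be told apart there.

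Ranked by the larger p of the separate tables, a ranking chosen after the values were seen, the lower set was led by Slc25a42, Rimbp2 and Oprd1. Slc25a42 (chromosome 8, 70184340 to 70212305), a mitochondrial carrier of coenzyme A, had 109, 118 and 98.7 CPM in KO and 82.2, 96.2 and 92.9 CPM in WT. It had 114, 92.5 and 113 CPM with the GFP vector and 49.9, 45.7 and 35.3 CPM with the Fst vector. Neither table overlapped, yet the changes, -0.26 and -1.29, differed from each other (difference -1.03 ± 0.18 SE, edgeR quasi-likelihood, adjusted p = 0.0463). Slc25a42 passed in the vector table alone (adjusted p = 0.0298) and in the pooled comparison with DESeq2. Rimbp2 (chromosome 5, 128757791 to 128953486), a linker of presynaptic active zones and calcium channels, had 335, 381 and 322 CPM in KO and 263, 313 and 281 CPM in WT. Its levels were 368, 379 and 620 CPM with the GFP vector and 226, 225 and 275 CPM with the Fst vector. All 6 libraries without follistatin were above all 6 with it, and the pooled change was -0.60 ± 0.15, or -0.43 ± 0.09 without GFP vector F.

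Oprd1 (chromosome 4, 132110726 to 132144486), the delta opioid receptor, had 17.0, 18.3 and 16.2 CPM in KO and 9.38, 13.4 and 13.7 CPM in WT. With the GFP vector it had 15.2, 27.3 and 38.4 CPM, and with the Fst vector 4.75, 7.45 and 12.2 CPM. Here too no library with follistatin reached the lowest library without it. The pooled change was -1.11 ± 0.31, or -0.90 ± 0.26 without GFP vector F. Lgr6, a receptor of R-spondins, had a pooled change of -1.46 ± 0.49, or -1.006 ± 0.29 without GFP vector F. Its counts in the Fst vector libraries were only 8, 10 and 21. The adenosine receptor Adora1 had a pooled change of -0.48 ± 0.13, or -0.42 ± 0.13 without GFP vector F. Neither Lgr6 nor Adora1 overlapped in either table.

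**Figure D2:**
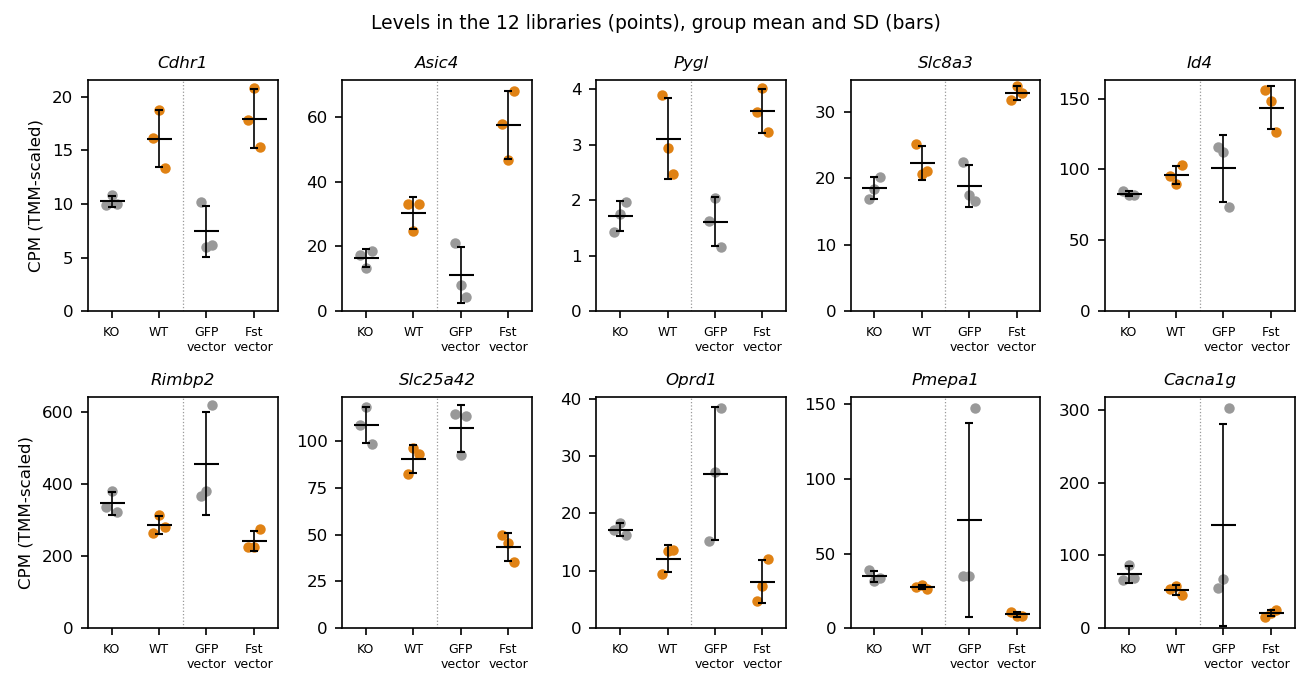
TMM-scaled CPM of 10 genes in each library (points, left to right in the order M1, F1, M2 or M1, M2, F), with group mean and SD (bars), libraries without follistatin in grey and with follistatin in orange. The dotted line parts the 2 tables. Groups do not overlap within either table for these genes, and GFP vector F is the high point for Rimbp2, Oprd1, Pmepa1 and Cacna1g.

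Among genes of the activin and BMP pathway, Fst was the only one called in the pooled fit and the only one whose changes were called different between the tables. Of 6 ligand genes of the activin and inhibin family tested, 4 were higher and 2 lower in the pooled fit, with a median of 0.33 against -0.0011 over all genes, and 2 (Gdf11 and Gdf10) had an unadjusted p under 0.05. Gdf11, a ligand that follistatin binds, had 27.4 to 31.7 CPM in KO and 28.1 to 32.6 CPM in WT, which overlap fully. It had 26.7, 23.4 and 19.7 CPM with the GFP vector and 37.8, 45.1 and 35.6 CPM with the Fst vector, a change of 0.77 ± 0.13 there and 0.04 ± 0.13 between KO and WT (edgeR quasi-likelihood, adjusted p of the difference = 0.196). Inhba, encoding the subunit of activin A, had 13.1, 13.8 and 11.97 CPM in KO and 9.92 to 12.8 CPM in WT. In the vector table its levels were 10.7, 17.8 and 90.9 CPM with GFP and 6.89, 10.3 and 35.8 CPM with Fst, which overlap. The pooled change was -0.72 ± 0.59, and 0.04 ± 0.40 without GFP vector F, so its direction rests on that library. Inhba overlaps B230303A05Rik on the other strand. Of 8 BMP and TGF-beta ligand genes 6 were lower, with a median of -0.108, and Bmp1, a protease despite its name, had an unadjusted p under 0.05 (0.19 ± 0.09).

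Among 13 receptor genes, 5 were higher and 8 lower, a median of -0.0023 that became 0.0284 with library totals (0.0295 over all genes). Acvr1c, the type I receptor ALK7, was in the set lower in both tables. It had 55.5, 62.0 and 57.0 CPM in KO and 43.8, 47.0 and 39.1 CPM in WT, without overlap. With the GFP vector it had 40.6, 82.5 and 174 CPM and with the Fst vector 19.8, 14.6 and 43.6 CPM, where the lowest GFP library lies under the highest Fst library. The pooled change was -1.18 ± 0.44 (SE, edgeR quasi-likelihood, adjusted p = 0.553), or -0.79 ± 0.31 without GFP vector F. Of 14 antagonist genes, Fst among them, 9 were lower, and Fstl1, a secreted relative of follistatin, had a pooled change of -0.41 ± 0.11. All 6 genes of SMAD signal transducers lay between -0.26 and 0.10, and none had an unadjusted p under 0.05.

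Feedback regulators and partners of SMAD signalling were mostly lower with follistatin. Of 13 tested, 10 were lower and 8 of these in both tables (6 with library totals), against 7870 and 4111 of all 15632 genes. With library totals, 3177 of all genes were lower in both tables. At an unadjusted p under 0.05, 5 were lower (3 with library totals), against 729 (4.66%) of all genes (509 with library totals). The median was -0.17 against -0.0011 over all genes. It was -0.0486 between KO and WT and -0.285 in the vector table. Pmepa1 (chromosome 2, 173224458 to 173276533), a membrane protein that sequesters SMAD2 and SMAD3, had 38.8, 31.5 and 34.0 CPM in KO and 27.4, 28.9 and 26.5 CPM in WT. It had 34.9, 34.8 and 148 CPM with the GFP vector and 11.1, 8.24 and 8.50 CPM with the Fst vector. Each library without follistatin was above each library with it. The pooled change was -1.59 ± 0.59 (SE, edgeR quasi-likelihood, adjusted p = 0.549), and -0.997 ± 0.26 without GFP vector F, and the change in the vector table was -2.97 with that library and -1.91 without it.

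For other feedback genes the changes lay nearer 0 between KO and WT than in the vector table, but the test of that difference did not pass for any of Skil, Klf10, Ski and Smad7 (edgeR quasi-likelihood, adjusted p from 0.0907 to 0.378). Skil, encoding the SMAD corepressor SnoN, had 93.6 to 102 CPM in KO and 103 to 107 CPM in WT, slightly higher with follistatin. In the vector table it had 92.7, 96.3 and 210 CPM with GFP and 35.4, 26.7 and 37.3 CPM with Fst. Its changes were 0.10 ± 0.27 and -2.01 ± 0.28, opposite in sign. Smad7, the inhibitory SMAD, and Ski, a further corepressor, had changes of -0.12 and -0.01 between KO and WT and of -0.98 and -0.58 in the vector table. Klf10, a TGF-beta inducible factor, had -0.16 and -2.25, the latter -1.56 without GFP vector F, where it was at 54.0 CPM against 19.3 CPM in each of the others.

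Of 20 genes known to respond to SMAD signals, some of them feedback inhibitors named above, 14 were lower in the pooled fit. The other 6 were higher, and the median was -0.13, where 7870 of all 15632 genes were lower. At an unadjusted p under 0.05 in the pooled fit, 4 were lower and 1, Id4, was higher. The lower direction of the list was that of the vector comparison. Between KO and WT, 9 were lower and 11 higher, with a median of 0.0086. Between GFP and Fst vector, 14 were lower and 6 higher, with a median of -0.25. Id genes are targets of BMP signals through SMAD1 and SMAD5 and encode inhibitors of neurogenic transcription factors. The pooled changes of Id1, Id2, Id3 and Id4 were 0.28, 0.21, 0.22 and 0.36. Id4 (chromosome 13, 48261228 to 48266026) was in the set higher in both tables. It had 85.0, 81.7 and 81.8 CPM in KO and 95.4, 89.7 and 103 CPM in WT, then 116, 113 and 73.8 CPM with the GFP vector and 156, 149 and 126 CPM with the Fst vector. The groups did not overlap in either table, and the pooled change was 0.36 ± 0.11 (SE, edgeR quasi-likelihood, adjusted p = 0.510), or 0.27 ± 0.07 without GFP vector F.

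**Figure D3:**
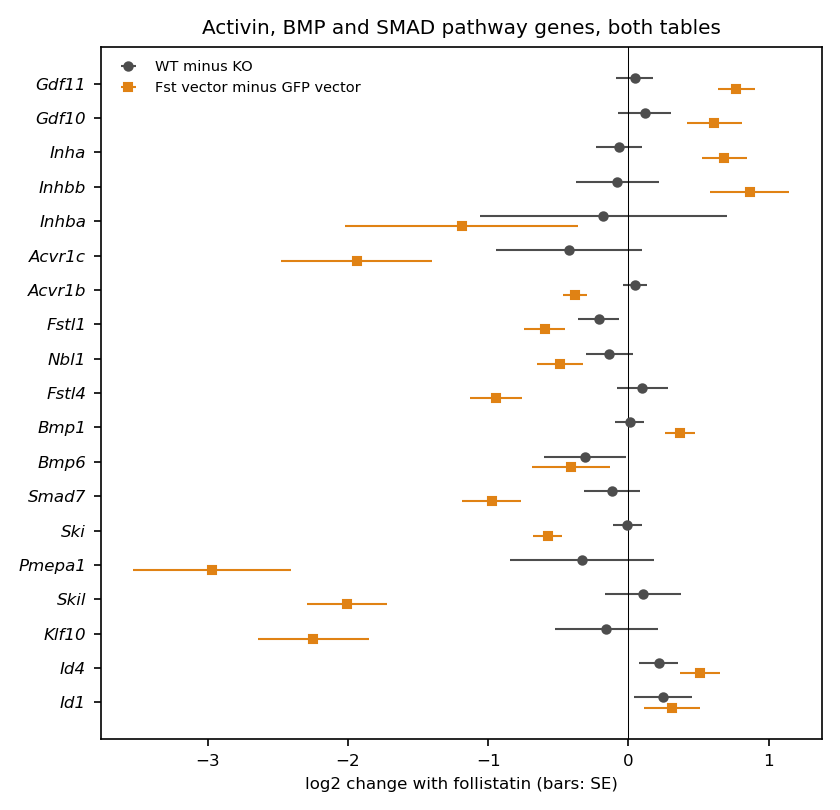
Log2 change of activin, BMP and SMAD pathway genes from KO to WT (grey circles) and from GFP vector to Fst vector (orange squares), with SE from the 12-library fit with a mean per group, in which both tables share 1 estimate of the spread. Gdf11, Skil and Ski lie near 0 between KO and WT and away from 0 in the vector table, and Id4 is above 0 in both.

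Channel, receptor and synaptic genes are given beside all genes tested, of which 7870 of 15632 were lower in the pooled fit and 4111 lower in both tables. With library totals, 6544 of the 15632 were lower in the pooled fit. In both tables, 3177 were then lower and 5161 higher, and counts with library totals are to be read against these. Of 26 potassium and sodium channel genes, acid-sensing channels included, 20 were lower (18 with library totals), 12 of them in both tables, and the median was -0.06. Asic4 went the other way. Kcnq3, a subunit of the M-type potassium channel, was in the lower set, with 269 to 290 CPM in KO, 231 to 278 CPM in WT, 144 to 203 CPM with GFP and 99.8 to 129 CPM with Fst. Its groups overlapped between KO and WT. Of 18 calcium channel genes 13 were lower, a median of -0.09. Cacna1g (chromosome 11, 94408391 to 94474198), the T-type channel Cav3.1, had 66.2, 86.7 and 69.0 CPM in KO and 54.1, 58.3 and 45.5 CPM in WT. It had 55.2, 68.2 and 302 CPM with the GFP vector and 15.9, 21.5 and 24.6 CPM with the Fst vector. Neither table overlapped, and the pooled change of -1.61 ± 0.58 became -0.96 ± 0.21 without GFP vector F.

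Synaptic vesicle release genes were lower in 21 of 25 cases (17 with library totals), 15 in both tables (10 with library totals), with a median of -0.09. Syn1, a vesicle phosphoprotein gene that overlaps Araf, had a pooled change of -0.22 ± 0.07, and the glutamate transporter Slc17a7 one of -0.21 ± 0.08. Glutamate receptor genes were lower in 13 of 22 cases, but between KO and WT 11 were lower and 11 higher, and with library totals 7 were lower and 7 higher in both tables. GABA receptor genes were lower in 10 of 14 cases, 8 in both tables (6 with library totals). Grm2, a presynaptic metabotropic receptor of granule cells, had 218 to 265 CPM in KO and 220 to 233 CPM in WT, against 269 to 348 CPM with the GFP vector and 137 to 183 CPM with the Fst vector. Its pooled change was -0.51 ± 0.14, carried by the vector table. Axon guidance genes were lower in 16 of 26 cases, and Nrp2, a semaphorin receptor gene, was in the lower set with -0.12 and -0.41.

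Cell type markers were counted to show which other cells moved with the groups, against 7762 of 15632 genes higher overall and 4096 higher in both tables. Mature granule cell markers were lower in 11 of 18 cases, a median of -0.03 that became 0.002 with library totals (0.0295 over all genes). Their summed level was 3326 to 3632 CPM in the WT and KO table, 2522 to 3612 CPM with GFP and 2921 to 3132 CPM with Fst. Interneuron markers were higher in 14 of 15 cases, a median of 0.24, but in both tables in 8, with sums of 563 to 675, 601 to 694, 544 to 771 and 667 to 792 CPM in KO, WT, GFP and Fst vector. Stem and progenitor markers were higher in 10 of 13 cases, 7 in both tables, with a median of 0.14. Their sums did not overlap in either table. The same was so, in the lower direction, for the sums of the synaptic release list and of the potassium and sodium channel list. The stem and progenitor sums were 218.6 to 227.3, 231.1 to 244.5, 213.5 to 218.8 and 252 to 277.9 CPM in KO, WT, GFP and Fst vector. Sox1, a member that overlaps Sox1ot, passed in the WT and KO table alone (edgeR quasi-likelihood, adjusted p = 0.0259). Its change was 1.02 there and 0.15 in the vector table. Cajal-Retzius markers were higher in 5 of 7 cases, 4 in both tables, with a median of 0.26. Their sums did not overlap between KO (123 to 132 CPM) and WT (154 to 164 CPM) and did between GFP (106 to 199 CPM) and Fst vector (110 to 137 CPM). Meningeal fibroblast markers were higher in 9 of 12 cases, 6 in both tables, with a median of 0.30, and in 11 of 12 between KO and WT, where the median was 0.51. Their sums overlapped, at 75.5 to 168 CPM in KO, 112 to 210 CPM in WT, 233 to 277 CPM with GFP and 172 to 430 CPM with Fst, the highest being Fst vector F. Astrocyte markers were higher in 9 of 13 cases with a median of 0.02, and Gja1, encoding the gap junction protein connexin 43, was in the higher set at 152 to 157 CPM in KO, 165 to 174 CPM in WT, 143 to 162 CPM with GFP and 172 to 201 CPM with Fst, without overlap.

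Several lists went different ways in the tables. Interferon response and antigen presentation genes had a median of 0.23 between KO and WT and of -0.59 in the vector table, and 18 of 21 were lower in the pooled fit, 5 of them in both tables. Their summed level was 309 to 639 CPM with the GFP vector, highest in GFP vector F, and 274 to 321 CPM with the Fst vector, against 194 to 247 CPM in the WT and KO table. Microglia markers were lower in 13 of 14 cases, 4 in both tables, with medians of 0.03 and -0.26. Oligodendrocyte markers were higher in 11 of 14 cases, 6 in both tables, with medians of -0.02 and 0.23. Red blood cell transcripts were higher in 5 of 5 cases, 4 in both tables, and Hbb-bs, a beta globin gene whose reads its near-identical copies can share, had a pooled change of 0.50 ± 0.14. The part of blood, meninges, Cajal-Retzius cells, glia and GFP vector F in the gene changes above was not tested beyond the values given without that library.

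**Figure D4:**
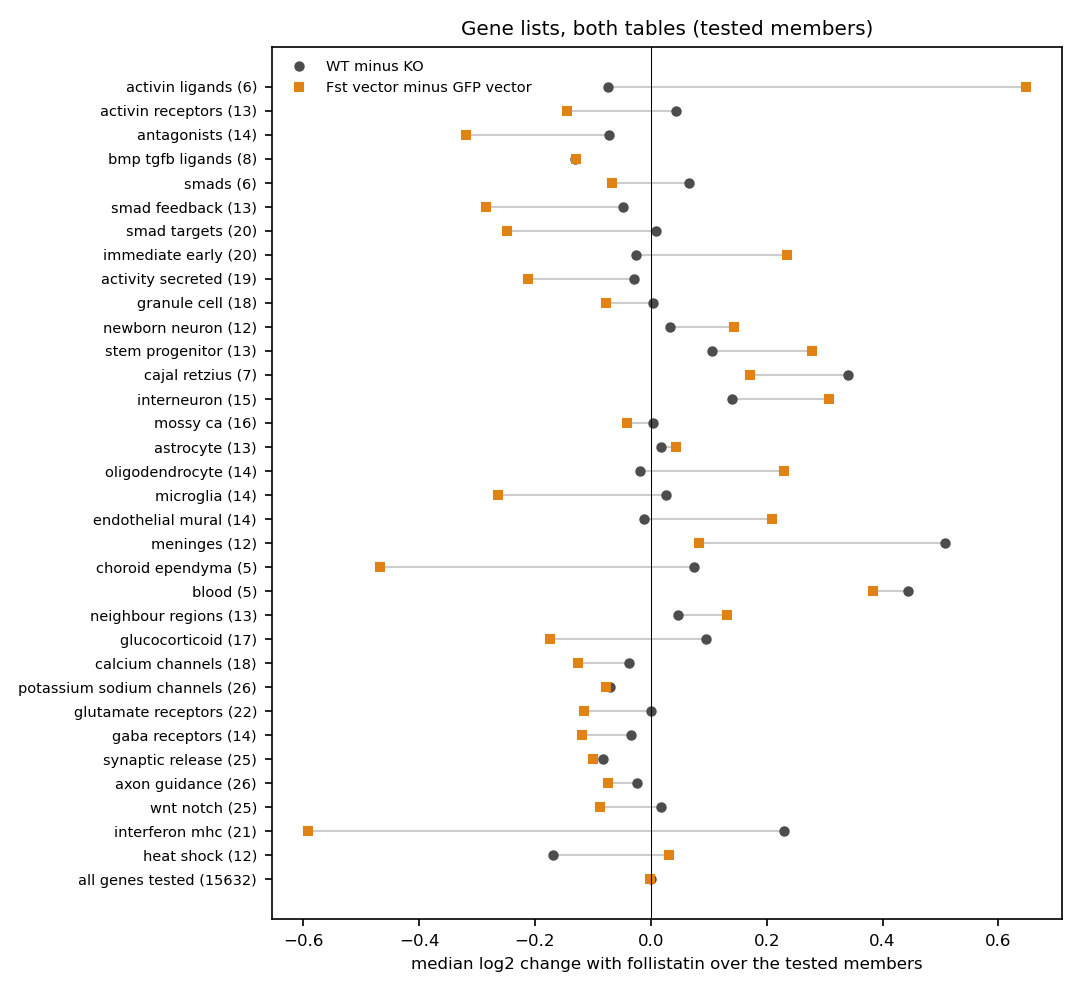
Median log2 change with follistatin over the tested members of each gene list (their number in brackets), from KO to WT (grey circles) and from GFP vector to Fst vector (orange squares), with all genes tested at the foot. SMAD feedback, synaptic release and interneuron lists have both medians on 1 side of 0, and interferon and microglia lists have them on opposite sides.

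The changes of 17 genes differed between the tables (0.109% of genes tested, edgeR quasi-likelihood, adjusted p under 0.05), and in 17 of 17 the vector change was the larger. Leaving out any 1 library moved this count by over 1.5 times, to 4 to 8 without a KO or WT library and to 10 to 58 without a vector library. With the replicate block, 163 genes were called. Among the 17 of the main fit, 12 had the same sign in both tables and 5 opposite signs. Robo3, a receptor in axon guidance, had 118 to 130 CPM in KO and 105 to 128 CPM in WT, 96.2 to 127 CPM with the GFP vector and 316 to 390 CPM with the Fst vector. Its changes were -0.08 ± 0.12 and 1.65 ± 0.12 (adjusted p of the difference = 4.45e-04). Nrip2, a nuclear receptor interacting protein gene that overlaps Itfg2, had 34.0 to 37.8 CPM in KO, 30.9 to 37.7 CPM in WT, 43.0 to 56.7 CPM with GFP and 12.4 to 15.1 CPM with Fst. Sec24d, a coat component of vesicles leaving the endoplasmic reticulum, Abcb10, a mitochondrial transporter, Hs6st1, a heparan sulfate sulfotransferase, and Ripor2, a regulator of RhoA, were likewise near 0 between KO and WT, from -0.09 to -0.01, and from -1.92 to -1.09 in the vector table. Robo3, Nrip2, Sec24d, Abcb10, Hs6st1 and Ripor2 each passed in the vector table alone (edgeR quasi-likelihood, adjusted p from 0.00666 to 0.0282). For these genes the pooled change is a mean of unlike effects.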

How the data were processed

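Unnormalized read counts came in 2 tables that the authors deposited, with 1 line per Ensembl gene as their headers give it, and were joined by gene ID over 52636 genes. Lines naming no gene (12 and 6) held 0 counts and were left out. Per the submitters' processing notes, reads were placed on GRCm38. Aligner, counting tool and strand handling: not given in the sources used here. Names and coordinates came from GENCODE vM21, which held 52489 of the genes.

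The deposited counts were fitted with edgeR 4.0.16 in R 4.3.3 (quasi-likelihood test, robust, TMM scaling, filterByExpr, Benjamini-Hochberg adjustment at 0.05), present against absent with the table as an additive block. Changes within a table and their difference came from a fit of all 12 libraries with a mean per group, in which SE share 1 estimate of the spread, while p-values for each table alone came from fits of its 6 libraries. The SE was taken as the size of the change over the root of the F statistic. The fits were tested on simulated data. CPM are TMM-scaled, and 3 counts equal 0.265 to 0.371 CPM by library totals.

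Genes were named by a rule: Fst, then the 5 of smallest p in each direction with the same sign in both tables, the 6 of smallest p for the difference, and up to 4 members of each of 33 gene lists. Others are said to be chosen after their values were seen. That covers Sorbs3 and Cdh23 too. The members and lists were chosen with earlier results of these data known. The promoter search was meant for called genes. Only Fst was called and it has no entry in the promoter table, so the genes past the unadjusted threshold in each table were searched. Alternatives were other scaling, filters and tools (DESeq2 1.42.0, voom of limma 3.58.1), a replicate block, terms for sex and ribosomal RNA, libraries left out, and, added after seeing the data, the mean of both tables' changes and the count past the unadjusted threshold in each table.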

Additional observations from a re-analysis of the deposited data

Results flagged for a closer look

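For 8 of the genes named above, a test of the difference itself found unlike changes in the 2 tables (edgeR quasi-likelihood, adjusted p of 0.0463 or less). The vector change minus the WT and KO change was 8.18 for Fst, 1.74 for Robo3, -1.79 for Nrip2, -1.74 for Sec24d, -1.06 for Ripor2, -1.20 for Hs6st1, -1.83 for Abcb10 and -1.03 for Slc25a42. In each of the 8 the change in the vector table was the larger. Groups of 3 libraries were too small to be searched for outlying libraries.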

How the results depend on the processing

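The counts below are of genes called in the pooled fit, called with the same sign in both tables, called in both tables at once, past the unadjusted threshold in each table with the same direction, and differing between the tables, in this order. As reported they were 1, 1, 1, 79 and 17. They were 2, 2, 4, 120 and 127 without a filter, 3, 3, 1, 60 and 144 with DESeq2, 0, 0, 1, 77 and 10 with voom, 1, 1, 1, 155 and 42 with a sex term, 1, 1, 1, 16 and 8 at a tested minimum of 1.2 fold, and 1, 1, 1, 76 and 10 without robust dispersion. At 10 counts or more in every library, 0, 0, 0, 74 and 17 remained, since this filter removes Fst. Without the 5 libraries of higher ribosomal RNA share they were 0, 0, 0, 46 and 0, from 7 libraries. The mean of both tables' changes, added after seeing the data, called 44 genes, 41 of them with the same sign, but all 44 had p under 0.05 in the vector table and only 2, Fst and Cdhr1, in both. Of the genes named above, the 44 also held Slc8a3, Samd14, Wnt7a, Cdh23, Kcns2, Grm2, Slc25a42, Robo3, Nrip2, Sec24d, Ripor2, Hs6st1 and Abcb10. Other scalings, a ribosomal RNA term and leaving out the 4 libraries named F kept each count within 1.5 times, though not always the same genes. Of the 79 genes, 79 were kept with DESeq2 size factors and 53 with library totals. With a ribosomal RNA term 57 were kept, and without the 4 libraries named F 38. Without the 5 libraries of higher ribosomal RNA share 16 were kept. Leaving out 1 library at a time gave 1 to 2, 1 to 2, 1 to 2, 53 to 120 and 4 to 58. The highest of the 79 counts, 120, came without GFP vector M1, where Batf3 was also called, and the lowest, 53, without WT M2. Without Fst vector M2, Atp6v0c-ps2 was also called. Without GFP vector F the count was 68, of which 60 were among the 79. Leaving out 1 library at a time kept from 40 (without WT M2) to 65 (without GFP vector M1) of the 79. The leave-one-out change of Inhba ran from -1.072 to 0.0359.

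With the replicate block the counts were 0, 0, 1, 142 and 163. Deviations of same-named libraries correlated at 0.0638, 0.153 and -0.0612 in the WT and KO table and at 0.303, 0.137 and 0.386 in the vector table. All 3 pairs passed 0.1 in the vector table and 1 of 3 in the WT and KO table. WT M1, WT F1 and the 3 Fst vector libraries correlated best with their own name and WT M2 did not. The fits over both tables therefore did not take the names as pairs, and no label says that a name marks shared mice. With 3 libraries per group, all but the largest changes are limited by the spread between libraries.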
